A study of Mus musculus with 10 samples.

Results

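The B cell receptor signalling genes described here are 32 genes of the 31053 in the count matrices. They were listed by function, with earlier results of these data known. They comprise 5 receptor or co-receptor genes, 8 kinase genes, 7 adaptor genes, 9 effector genes and 3 phosphatase genes. The kinase genes include Pik3r1, a regulatory subunit, and the adaptor genes include the ubiquitin ligase Cblb. They were followed in single-cell RNA libraries from mouse spleens. All mice were of the BXD2 background, an inbred line in which germinal centers form without immunization and autoantibodies appear. 3 mice lacked p19, the subunit specific to the cytokine IL-23 (BXD2-p19-/-; mice 1 and 2 female, mouse 3 male), and 2 female mice were BXD2-WT. No ages were used here, and both genotypes share the BXD2 background. Each mouse gave 1 library of B and T cells for gene expression by the 10x Genomics 5' method and 1 matching library of B cell receptor contigs, which gave each cell's heavy-chain isotype. Il23a, which encodes p19, had 0 UMIs in every B cell class, T cell and macrophage sum of both genotypes, so the deletion could not be checked in these cells.

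Antigen binding to surface immunoglobulin is relayed through Cd79a and Cd79b, whose cytoplasmic tails are phosphorylated by the Src-family kinases Lyn, Blk and Fyn and then recruit Syk. The adaptor Blnk brings Btk and Plcg2 together, and the second messengers made by Plcg2 open calcium stores through Itpr2, activate Nfatc1 and Nfatc2, and, through Prkcb, engage the Bcl10 and Malt1 complex upstream of NF-kappaB. Phosphoinositide 3-kinase subunits (Pik3cd, Pik3r1) and the phosphatases Ptpn6 and Inpp5d set the strength of the signal. In germinal centers, B cells divide and mutate their receptors in the dark zone and test them against antigen in the light zone.

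Promoter sequences were matched for 26 of the 32 genes in RefSeq (GRCm38.p6), as the 250 bases before each gene's start. Those of Cd79a, Blnk, Bank1, Cr2 and Prkcb are shown because these genes carried the differences between cell classes described next. Capitals mark GGAAGT or its reverse complement ACTTCC, a sequence bound by ETS-family factors, and ATTTGCAT or its reverse complement ATGCAAAT, the octamer bound by POU-family factors, which do not overlap each other. Cd79a is at chr7:24897247-24897496 (plus strand), Blnk at chr19:40994222-40994471 (minus strand), Bank1 at chr3:136326067-136326316 (minus strand), Cr2 at chr1:195176720-195176969 (minus strand) and Prkcb at chr7:122288875-122289124 (plus strand).
Cd79a: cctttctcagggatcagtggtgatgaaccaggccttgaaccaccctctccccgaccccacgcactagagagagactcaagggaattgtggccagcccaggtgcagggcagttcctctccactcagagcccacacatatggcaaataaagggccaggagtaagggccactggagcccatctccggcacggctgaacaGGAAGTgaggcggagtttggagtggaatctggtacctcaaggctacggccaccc
Blnk: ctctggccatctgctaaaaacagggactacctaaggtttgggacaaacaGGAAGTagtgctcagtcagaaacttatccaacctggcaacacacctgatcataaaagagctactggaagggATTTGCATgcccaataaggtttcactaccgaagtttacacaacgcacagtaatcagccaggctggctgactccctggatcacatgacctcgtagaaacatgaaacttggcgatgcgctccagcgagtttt
Bank1: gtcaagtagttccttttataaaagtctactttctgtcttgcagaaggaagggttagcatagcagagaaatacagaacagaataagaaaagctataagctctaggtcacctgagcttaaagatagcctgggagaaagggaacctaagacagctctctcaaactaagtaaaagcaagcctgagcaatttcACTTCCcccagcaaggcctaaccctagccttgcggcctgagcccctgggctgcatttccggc
Cr2: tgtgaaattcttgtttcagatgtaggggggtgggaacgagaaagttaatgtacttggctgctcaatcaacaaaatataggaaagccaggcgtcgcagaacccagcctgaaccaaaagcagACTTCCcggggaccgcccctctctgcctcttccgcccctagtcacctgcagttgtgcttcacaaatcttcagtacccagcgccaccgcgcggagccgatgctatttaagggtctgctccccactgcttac
Prkcb: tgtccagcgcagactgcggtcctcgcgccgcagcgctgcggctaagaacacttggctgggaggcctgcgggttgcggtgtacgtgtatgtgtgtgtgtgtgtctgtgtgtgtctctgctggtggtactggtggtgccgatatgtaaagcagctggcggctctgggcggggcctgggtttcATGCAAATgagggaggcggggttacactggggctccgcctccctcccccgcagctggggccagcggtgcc
GGAAGT was found on either strand in 14 of the 26 matched promoters (53.8%), against 6485 of 32851 windows of the same length over all genes (19.7%). The octamer was found in 2 of the 26 (7.69%), Blnk and Prkcb, against 526 windows (1.6%). Blnk held both motifs. These are matches of letters and no binding was measured. Cd79b, Ms4a1, Lyn, Blk, Malt1 and Nfatc1 had no entry in the table used.

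The 5 libraries held 11355 cell barcodes and 69958493 UMIs, of which 9200 cells were kept after removing cells over 10% mitochondrial UMIs and the highest doublet scores. Mouse p19-/- 1 stood apart, with 36% of barcodes over the mitochondrial limit against 9.17% to 13.2% in the others, and 68 barcodes occurred in more than 1 library. Clusters were named from marker genes: 2868 germinal center (GC) B-like cells (182 to 1063 per mouse), 651 non-GC B-like cells (52 to 205), 300 plasma-like cells, 3465 T-like cells and 426 B cells of a cluster led by Sox4 and Pcp4. UMIs were summed per mouse and class, and levels are UMIs per 1000000 of those sums (CPM), with immunoglobulin and T cell receptor segment genes left out. Summed depth per mouse was 3093918 to 10466146 UMIs for GC B cells and 645322 to 1472471 for non-GC B cells. CPM is a share of a class's RNA, so by CPM alone less of a transcript and more of all others cannot be told apart. A gene was called when the adjusted p of edgeR's quasi-likelihood test, Benjamini-Hochberg adjusted over all genes tested, was under 0.05, and log2 differences are given with their standard error (SE).

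The receptor genes marked the B cell classes. Cd79a was between 1294 and 1857 CPM in GC B cells of the 5 mice and between 2532 and 3110 CPM in non-GC B cells, against 3.14 to 64.4 CPM in T cells, the highest T cell value being that of p19-/- 1. Blk (88.9 to 112 CPM in GC B cells, 0 to 8.69 CPM in T cells), Bank1 (42.8 to 65.4 and 0.523 to 8.69 CPM) and Blnk (309 to 387 and 2.15 to 13.4 CPM) were likewise near 0 in T cells. This bounds the part of free RNA in T cells and not in the other classes. Bank1, Syk and Lyn were present in macrophage-like cells as well. Fyn, Nfatc1, Malt1, Prkcb, Ptpn6 and Ptprc are not B cell specific: T cells held 337 ± 27.1 CPM of Fyn and 376 ± 39.0 CPM of Nfatc1 (mean ± SD, n = 5). The summed level of T cell genes is therefore given beside the comparisons of B cell classes.

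**Figure D1:**
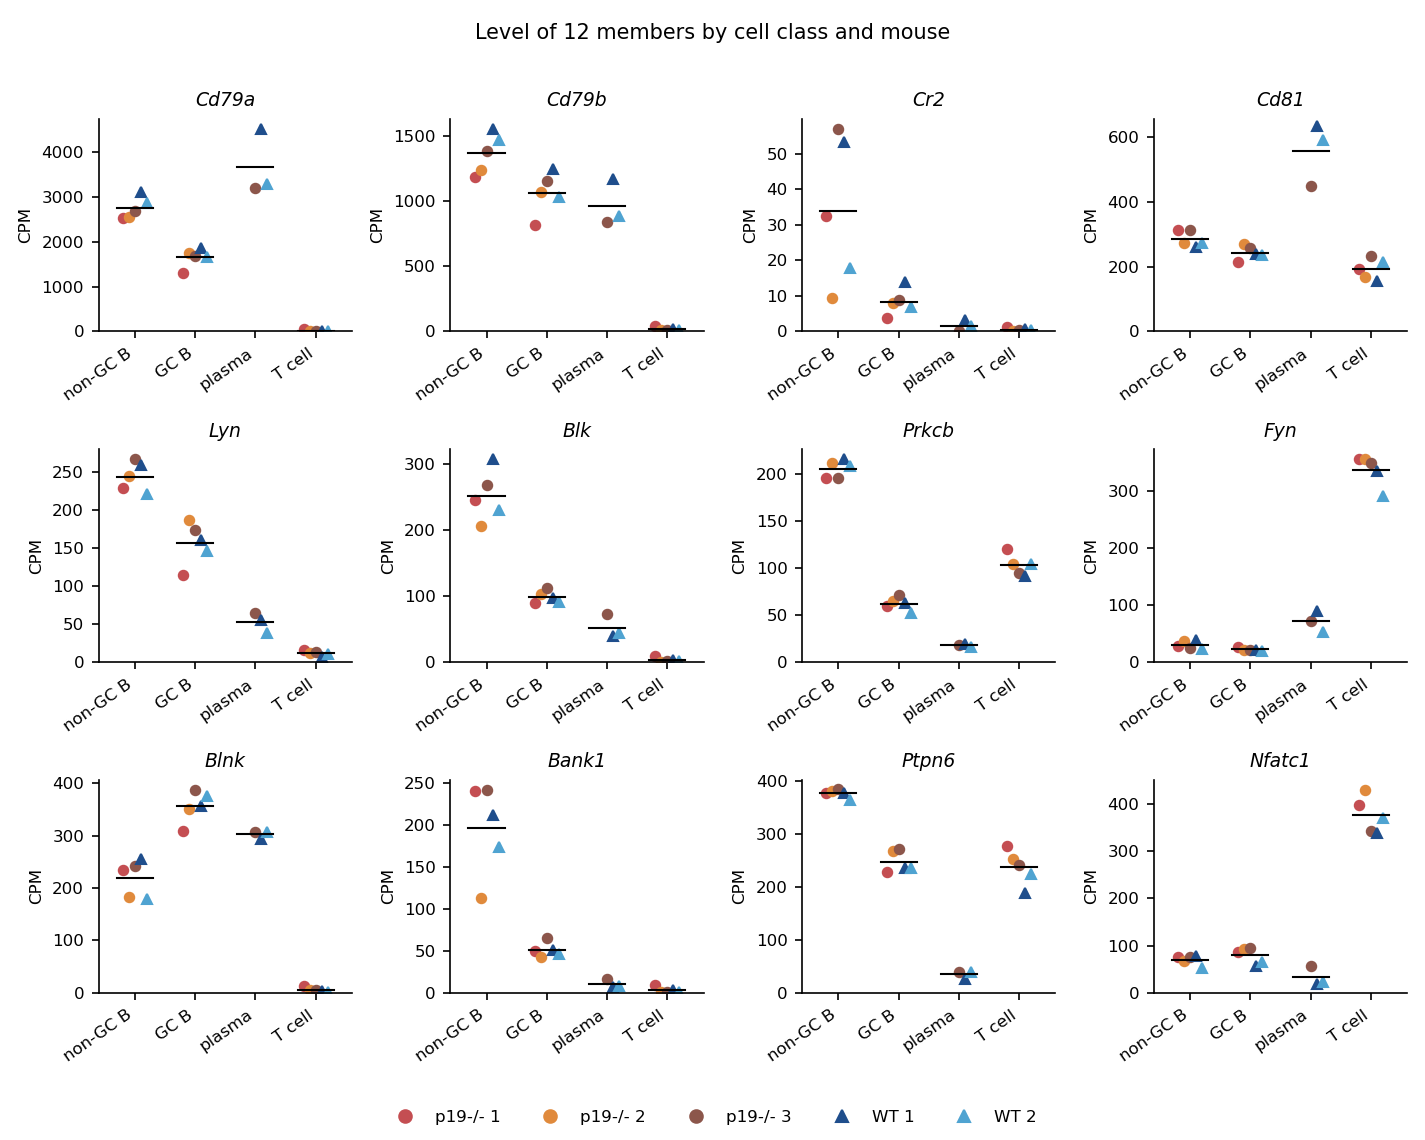
Level of 12 of the 32 genes in CPM (linear axes from 0) in non-GC B, GC B, plasma and T cells, 1 point per mouse, with p19-/- mice as circles, WT mice as triangles and a line at the mean over mice. Cd79a in GC B cells (1294 to 1857 CPM) lay below non-GC B cells (2532 to 3110 CPM) in each mouse, Blnk showed the opposite order, and Fyn and Nfatc1 were highest in T cells.

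The study asked what IL-23 deficiency does to germinal center B cells, so the genotypes were compared first. In GC B cells none of the 31 genes tested was called, where 0.214% of all genes tested were (22 of 10292). The gene nearest to a call was Nfatc1, a calcineurin-activated transcription factor. Its levels were 85.7, 92.7 and 95.4 CPM in the p19-/- mice and 57.5 and 64.6 CPM in the WT mice. The p19-/- mice were all above the WT mice, as groups also did not overlap for 25.8% of all genes. The means were 91.2 ± 5.01 CPM (SD, n = 3) and 61.0 ± 5.03 CPM (n = 2), a log2 difference of 0.57 (SE 0.10) with an adjusted p of 0.0622 in edgeR's quasi-likelihood test. Its standing depended on the setting: the adjusted p was 0.0155 with DESeq2, 0.000541 with no filter on low counts and 0.0165 without p19-/- 1, but 0.999 without WT 1 and 0.306 with sex as a covariate, the difference staying between 0.41 and 0.65 over all alternatives run. The 12 T cell markers, all detected in GC B cells, summed to 12.9, 20.5 and 14 CPM in the p19-/- mice and 10.6 and 7.19 CPM in the WT mice. With cells holding a T cell receptor complex UMI left out, the Nfatc1 difference was 0.52 with an adjusted p of 0.125.

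The receptor chains differed little by genotype in GC B cells. Cd79a was at 1579 ± 250 CPM in p19-/- mice and 1759 ± 138 CPM in WT mice (log2 difference -0.18, 2 SE on each side giving -0.41 to 0.06), and Cd79b at 1015 ± 178 and 1139 ± 154 CPM (-0.19, -0.46 to 0.09). p19-/- 1 had the lowest level of both (1294 and 815 CPM), and the genotypes overlapped. Of the proximal kinases and their adaptor, the log2 differences were -0.09 for Syk, 0.04 for Lyn, -0.08 for Btk and -0.08 for Blnk, with SEs of 0.11 to 0.16 and adjusted p-values of 0.867 to 0.968 by edgeR. On simulated data this comparison recovered 56.7% of genes changed 1.5-fold and 89.6% of those changed 2-fold. None of the 69 other pathway genes tested was called either.

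In IgG2b-switched GC B cells (27 to 163 cells per mouse) none of 30 genes was called, beside 0.0404% of all genes (0.0270% higher, 0.0135% lower in p19-/- mice). Bank1, a scaffold protein that joins Lyn to calcium release, was at 87.6, 57 and 85.1 CPM in the p19-/- mice and 55 and 35.1 CPM in the WT mice. The lowest p19-/- mouse stood just above the higher WT mouse, and the groups were likewise apart for 20.8% of all genes. The log2 difference was 0.76 (SE 0.24) with an adjusted p of 0.634 by edgeR. Nfatc1 was at 73.2 ± 13.2 and 51.9 ± 4.96 CPM (0.45, SE 0.21, adjusted p = 0.770 by edgeR). The differences of Cd79a (-0.13), Cd79b (-0.09), Syk (-0.07), Lyn (0.09), Btk (-0.14) and Blnk (-0.23) had adjusted p-values of 0.854 to 0.974 by edgeR. In the simulation of this comparison only 14.9% of 1.5-fold changes and 55.2% of 2-fold changes were recovered.

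In non-GC B cells none of 31 genes was called, beside 0.0265% of all genes. Cd79a was at 2588 ± 91.6 CPM in p19-/- and 2986 ± 175 CPM in WT mice (log2 difference -0.22, SE 0.11, adjusted p = 0.858 by edgeR), with each p19-/- mouse below both WT mice, as groups also did not overlap for 20.8% of all genes. Cd79b differed by -0.27 (SE 0.12, adjusted p = 0.831 by edgeR) and Grb2, the adaptor that couples receptors to Ras, by 0.42 (SE 0.14, adjusted p = 0.755 by edgeR). Nfatc1 differed by 0.18 (SE 0.21), Syk by -0.02, Lyn by 0.03, Btk by -0.26 and Blnk by 0.02. At an unadjusted p under 0.05, 1 member of 31 stood out in GC B cells, 2 of 30 in IgG2b cells and 3 of 31 in non-GC B cells, against 898, 480 and 445 of all genes. The genotype difference was also compared between the zones and between GC and non-GC B cells by interaction terms, which called 0 of 31 and 0 of 32 members (0.0110% and 0.0105% of all genes; 1 member each at an unadjusted p under 0.05).

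**Figure D2:**
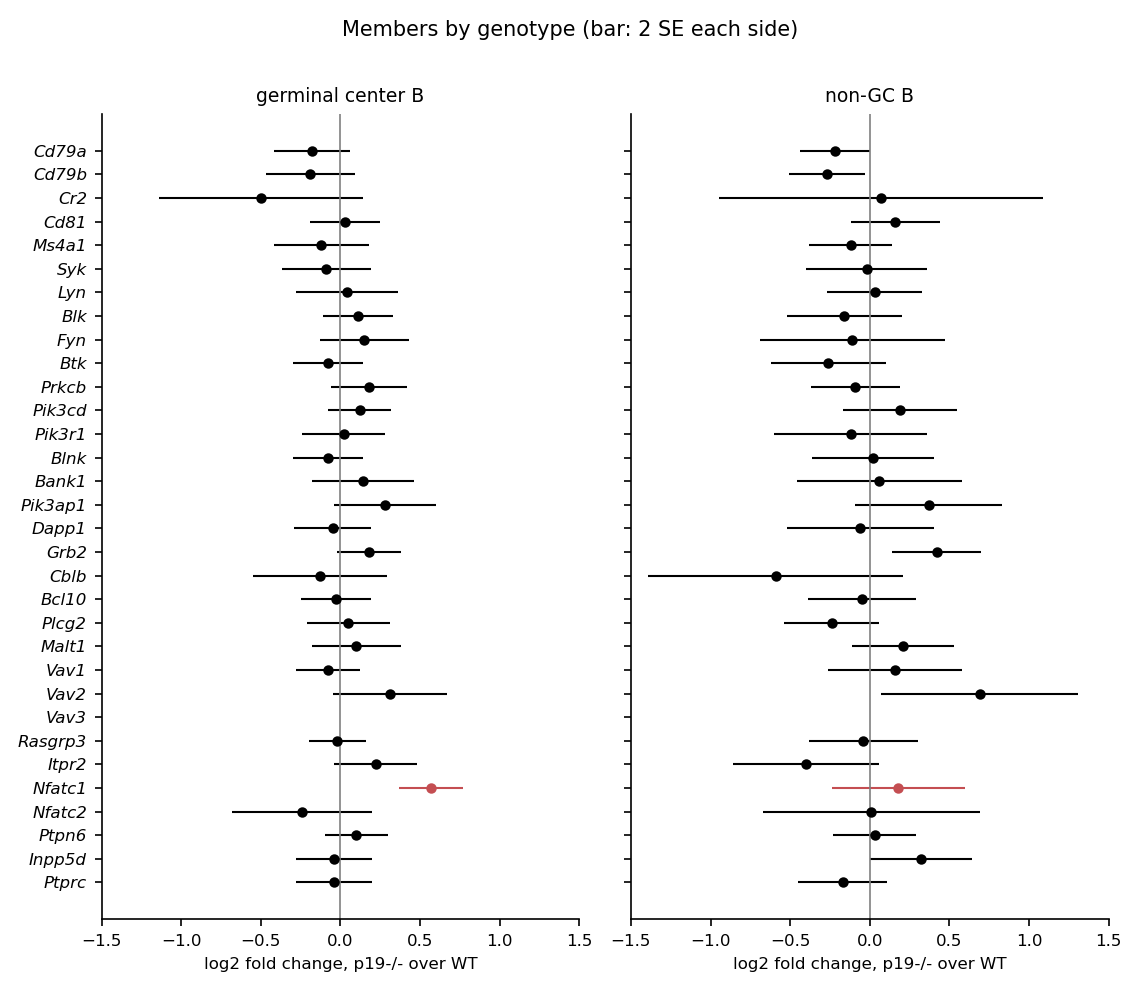
Log2 difference between p19-/- and WT mice for each of the 32 genes in GC B cells (left) and non-GC B cells (right); points are edgeR estimates from 3 and 2 mice and bars 2 SE on each side, with no bar for Vav3, which was not tested. Nfatc1 (red) stood at 0.57 in GC B cells and 0.18 in non-GC B cells, and no gene was called in either.

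As a share of RNA, most receptor signalling transcripts were lower in GC B cells than in non-GC B cells of the same mice. UMIs of these genes per cell were not compared. Of 32 genes, 20 were lower and 1 higher, where 54.9% of all genes were called (27.8% lower, 27.1% higher). The median difference was -0.37 over the members and -0.02 over all genes. The 7 pan B markers, none of them a member, were also lower, at a sum of 15035 to 17636 CPM in GC B and 24389 to 28694 CPM in non-GC B cells. Whether the members differed more than other B cell genes was not tested. All 5 receptor and co-receptor genes, 7 of 8 kinase genes, 1 of 7 adaptor genes, 5 of 9 effector genes and 2 of 3 phosphatase genes were lower. 17 of the 21 called genes moved the same way in each of the 5 mice. The other 4 were Syk, Btk, Plcg2 and Itpr2. Btk (71.6 ± 4.73 against 79.3 ± 11.3 CPM, SD, n = 5) and Plcg2 (166 ± 22.7 against 182 ± 19.8 CPM) were lower in 3 of the 5 mice by CPM, and their means differed by less than the SD of at least 1 of the groups.

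The co-receptor Cr2 (CD21), which binds complement-coated antigen, was at 3.88, 8.14, 8.98, 14 and 6.81 CPM in GC B cells of p19-/- 1 to 3 and WT 1 and 2, and at 32.5, 9.3, 57, 53.4 and 17.9 CPM in their non-GC B cells. Levels were lower in GC B cells of each mouse, although WT 1 GC B cells exceeded the non-GC B cells of p19-/- 2 (log2 difference -2.18, SE 0.23). Bank1 was at 49.8, 42.8, 65.4, 50.8 and 45.7 CPM against 241, 113, 242, 212 and 174 CPM. The groups did not overlap (-2.06, SE 0.10). Prkcb, the protein kinase C beta that leads to NF-kappaB, was at 59.8, 64.8, 71.4, 63.1 and 51.7 CPM against 196, 211, 196, 216 and 208 CPM. No GC B value approached the lowest non-GC B value (-1.85, SE 0.09). Blk, a Src-family kinase largely restricted to B cells, was at 98.2 ± 9.66 against 252 ± 38.3 CPM (-1.48, SE 0.09). Malt1, the protease of the Bcl10 complex, was at 48.5 ± 6.91 against 103 ± 11.4 CPM (-1.19, SE 0.11). Cd79a differed by -0.86 (SE 0.05), Nfatc2 by -0.85 (SE 0.20), Lyn by -0.78 (SE 0.08) and Ptpn6, the inhibitory phosphatase SHP-1, by -0.73 (SE 0.07). Vav3 rested on 1, 0, 7, 1 and 1 UMIs in GC B cells and 4, 1, 9, 9 and 6 UMIs in non-GC B cells, so its fitted difference of -4.40 has an SE of 0.58. The adjusted p-values of these 10 genes lay between 7.36e-14 and 0.00109 by edgeR.

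Blnk was the exception among the called genes. It was at 309, 351, 387, 357 and 375 CPM in GC B cells and 234, 183, 242, 256 and 179 CPM in non-GC B cells. The groups did not overlap, and the log2 difference was 0.58 (SE 0.09, adjusted p = 7.70e-06 by edgeR). The remaining lower genes differed by less: Syk -0.65, Fyn -0.58, Ptprc (CD45) -0.52, Cd79b -0.49, Itpr2 -0.43, Ms4a1 (CD20) -0.38, Cd81 -0.36, Pik3r1 -0.32, Btk -0.28 and Plcg2 -0.27. 4 of these calls rested on single mice: Btk was at -0.26 without WT 1 (adjusted p = 0.0566), Plcg2 at -0.20 (0.0669) and Itpr2 at -0.29 (0.113) without WT 2, and Pik3r1 lay between -0.35 and -0.29 (0.0518 to 0.103) without p19-/- 1, WT 1 or WT 2, all by edgeR.

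Cell cycle genes moved with this comparison. The 15 G2 and M phase genes summed to 2424 to 3329 CPM in GC B cells and 506 to 1646 CPM in non-GC B cells, and median UMIs per cell were 7910 to 14339 and 4008 to 11113. Markers of other cell types were lower in GC B cells too. The 12 T cell markers, all detected in both, summed to 7.19 to 20.5 CPM in GC B and 18.2 to 76.6 CPM in non-GC B cells. The 11 macrophage or monocyte markers summed to 12.6 to 28.8 and 52.3 to 183 CPM, with Ly6c2 at 0 in GC B cells, and Bank1 was at 205 to 291 CPM in macrophage-like cells. With cells holding a T cell receptor complex UMI left out, Fyn (-0.56), Malt1 (-1.25), Prkcb (-1.90), Ptpn6 (-0.72) and Ptprc (-0.53) were still called. The part of macrophage RNA in the result was not tested. Of the 3 GC B clusters, 1 (910 cells) held 235 CPM of these genes against 2696 and 4193 CPM in the others. When that cluster alone was compared with non-GC B cells, a choice made after seeing the data, 6 of the 19 lower genes still tested remained lower and called: Prkcb (-1.56), Bank1 (-1.19), Cr2 (-1.05), Malt1 (-0.73), Blk (-0.68) and Cd79a (-0.15). Blnk remained higher (0.87). Itpr2 (0.50), Cd79b (0.49), Ms4a1 (0.27) and Plcg2 (0.27) were called in the opposite direction. Pik3r1 (0.16), Syk (0.14), Btk (0.05), Cd81 (0.04) and Lyn (0.04) changed sign without a call, and Nfatc2 (-0.46), Fyn (-0.38), Ptprc (-0.10) and Ptpn6 (-0.08) kept their sign without one.

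**Figure D3:**
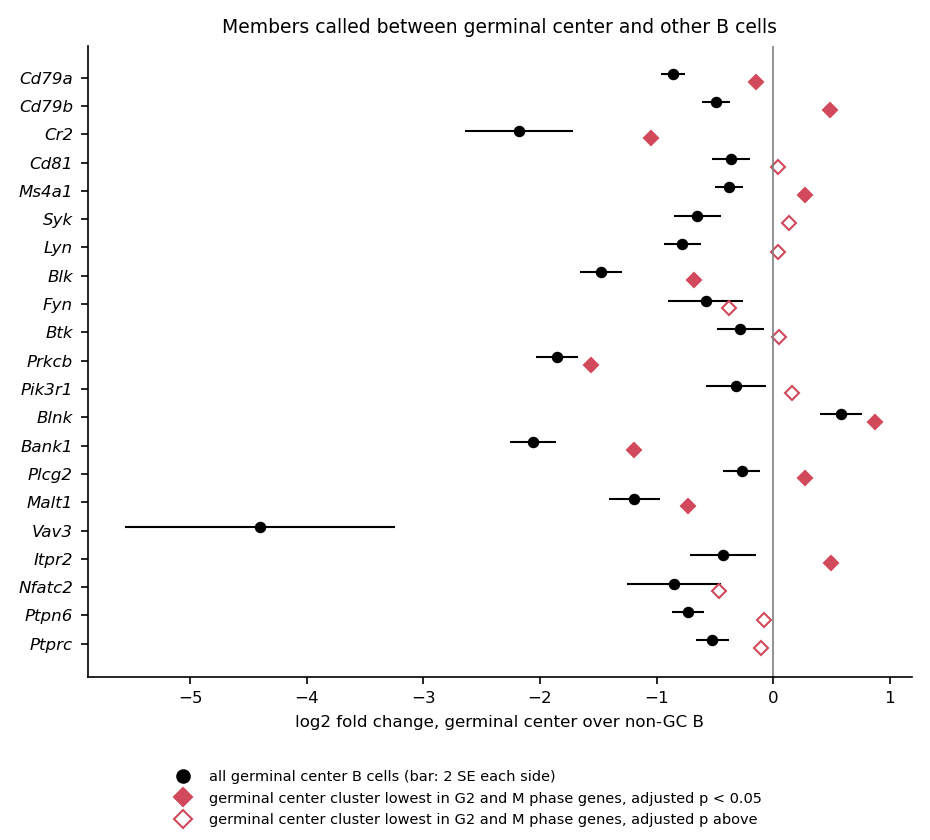
Log2 difference between GC and non-GC B cells for the 21 called genes, from 5 mice with mouse as a block: black points with bars of 2 SE use all GC B cells, and diamonds use only the GC B cluster lowest in G2 and M phase genes (filled where the adjusted p is under 0.05). Prkcb, Bank1, Cr2, Malt1 and Blk stayed well below 0 in both, while Cd79b moved from -0.49 to 0.49.

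Among the 70 other pathway genes tested, 31 were lower and 12 higher in GC B cells. The share called was 61.4%, beside 54.9% of all genes. Large decreases were those of Ptpn22 (-5.20), a phosphatase, Pik3r5 (-4.75), Itpr1 (-3.36) and Themis2 (-3.36). Large increases were those of Akt1 (1.07), Lck (0.96), Hras (0.92) and Pik3cg (0.55).

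Within the GC, light zone and dark zone cells were taken as the tertiles at either end of a dark minus light zone score in each mouse (60 to 354 cells per zone and mouse). The genes of the score were not members and were left out of the test. Of 31 genes, 15 were higher and 3 lower in light zone cells, where 35.6% of all genes were called (17.7% higher, 17.9% lower), and the median difference was 0.19 over the members and 0.00 over all genes. All 5 receptor and co-receptor genes, 4 of 8 kinase genes, 3 of 7 adaptor genes, 2 of the 8 effector genes tested and 1 of 3 phosphatase genes were higher. The pan B markers were higher too, at a sum of 17142 to 23507 CPM in light zone and 13699 to 15151 CPM in dark zone cells. Whether the members differed more than other B cell genes was again not tested.

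Cr2 was at 9.75, 25.5, 11.1, 23.5 and 9.96 CPM in light zone cells of p19-/- 1 to 3 and WT 1 and 2 and at 1.86, 3.41, 5.21, 9.43 and 7.3 CPM in dark zone cells. No dark zone value reached a light zone one, though 9.43 CPM in WT 1 lay just under 9.75 CPM in p19-/- 1 (log2 difference 1.26, SE 0.23, adjusted p = 4.65e-05 by edgeR). These levels rest on few UMIs: the p19-/- 1 sums held 922839 UMIs in light zone and 1076902 in dark zone cells. Ptpn6 was at 299, 393, 357, 358 and 324 CPM against 189, 209, 215, 197 and 212 CPM, again without overlap (0.72, SE 0.06, adjusted p = 1.38e-10 by edgeR). Pik3ap1, the adaptor BCAP that recruits phosphoinositide 3-kinase, was at 82.4, 136, 84.5, 82.4 and 73.2 CPM against 43.6, 66.8, 51.4, 49.3 and 49.1 CPM, also apart (0.73, SE 0.09). Bank1 differed by 0.74, Blk by 0.65, Itpr2 by 0.64, Nfatc1 by 0.54, Fyn by 0.52, Lyn by 0.50, Cd79b by 0.41, Ms4a1 by 0.40, Cd79a by 0.39, Cd81 by 0.25, Syk by 0.20 and Grb2 by 0.17. The 3 lower genes were Malt1 (-0.50, SE 0.10), at 39.0 ± 5.36 against 52.9 ± 5.24 CPM, Btk (-0.34, SE 0.09) and Pik3r1 (-0.29, SE 0.11), each lower in light zone cells of all 5 mice. Several small differences depended on single mice: Cd81 was at 0.18 (adjusted p = 0.107) without p19-/- 3, Grb2 at 0.16 (0.136) without p19-/- 3 and 0.13 (0.194) without WT 1, Syk between 0.14 and 0.22 (0.0647 to 0.237) without any 1 mouse but p19-/- 1, and Pik3r1 between -0.36 and -0.24 (0.0510 to 0.221) without any 1 mouse, all by edgeR.

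The dark zone score contains mitotic genes, and the G2 and M phase list, which shares no gene with it, summed to 848 to 1759 CPM in light zone cells against 4215 to 5292 CPM in dark zone cells. Median UMIs per cell were 6051 to 10674 and 10844 to 17618, so a higher share of RNA need not mean more UMIs of a gene per cell. These were not compared between zones. With a dark zone list without cell cycle genes, these sums were 1867 to 2777 and 3251 to 4291 CPM, and 3 of the 15 higher genes stayed higher and called: Cr2 (0.89), Pik3ap1 (0.37) and Ptpn6 (0.34). Cd79b (-0.73), Syk (-0.70), Lyn (-0.51), Cd79a (-0.35) and Cd81 (-0.23) were then called lower in light zone cells. Itpr2 (-0.19), Blk (-0.04) and Bank1 (-0.03) changed sign without a call, and Fyn, Nfatc1, Grb2 and Ms4a1 were not called. Malt1 (-0.97), Pik3r1 (-0.61) and Btk (-0.58) remained lower. The direction of the receptor chains, Syk and Lyn between the zones thus differed between the 2 scores, whereas that of Cr2, Pik3ap1, Ptpn6, Malt1, Pik3r1 and Btk was the same with both scores.

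**Figure D4:**
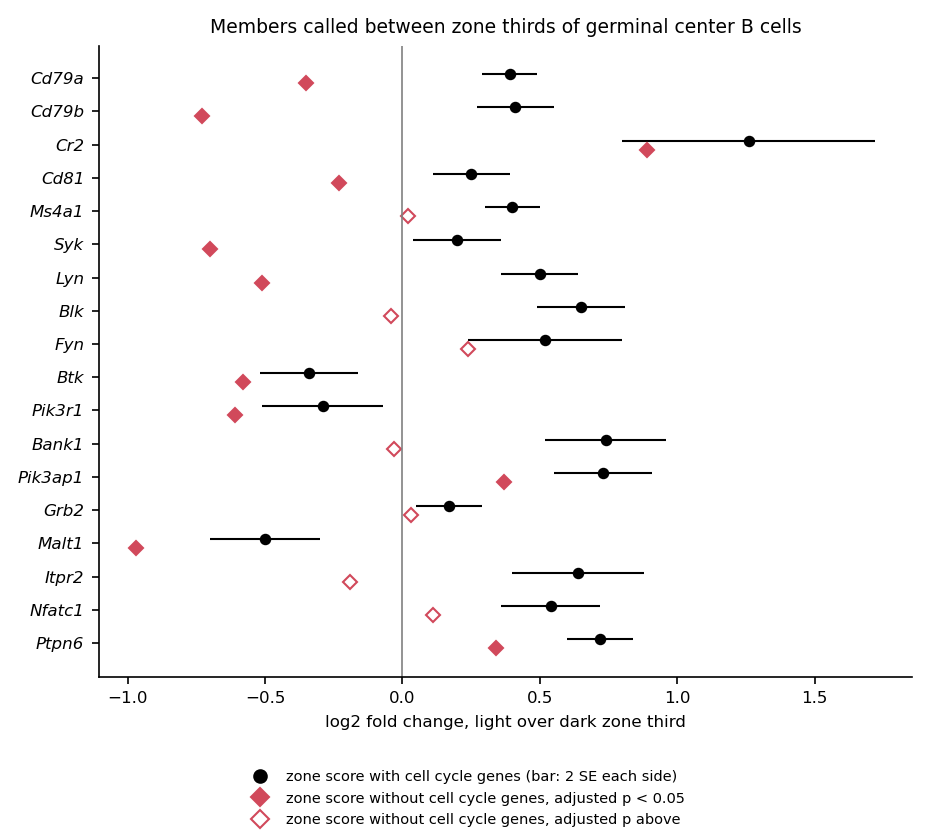
Log2 difference between light and dark zone tertiles of GC B cells for the 18 called genes, from 5 mice: black points with bars of 2 SE use the zone score with cell cycle genes, and diamonds the score without them (filled where the adjusted p is under 0.05). Cd79a, Cd79b, Cd81, Syk and Lyn lay above 0 with the first score and were called below 0 with the second.

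Of the 66 other pathway genes tested between zones, 17 were higher and 15 lower in light zone cells. The share called was 48.5%, beside 35.6% of all genes. Sh3bp2 (1.55), an adaptor, Itpr1 (1.33), Themis2 (1.23), Orai1 (1.13), the store-operated calcium channel, and Lck (0.94) were highest. Inppl1 (-0.79), Dok3 (-0.78), an inhibitory adaptor, Dgkz (-0.70), Mtor (-0.44) and Traf6 (-0.43) were lowest.

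Isotypes were compared in GC B cells of p19-/- 2 and 3 and WT 1 and 2, since p19-/- 1 held 15 IgM cells, and all 3 comparisons share the IgM cells. Nfatc1 and Blk were called in each. Nfatc1 was at 116, 153, 82.7 and 111 CPM in IgM cells of p19-/- 2, p19-/- 3, WT 1 and WT 2, at 71.2, 50.8, 40.3 and 42.6 CPM in IgG1 cells, at 87.9, 62.4, 48.4 and 55.4 CPM in IgG2b cells and at 114, 108, 51.8 and 52.7 CPM in IgG2c cells. Each mouse had its highest level in IgM cells. The log2 differences from IgM were -1.28 (SE 0.12, adjusted p = 7.55e-09 by edgeR) for IgG1, -0.93 (SE 0.13, 1.12e-05) for IgG2b and -0.59 (SE 0.12, 0.00377) for IgG2c. In IgG2c cells the p19-/- mice (99.6 CPM in p19-/- 1) lay above the WT mice, a pattern picked after its values were seen. It was not particular to IgG2c: p19-/- 2 and 3 also lay above both WT mice in IgM, IgG1 and IgG2b cells. The share of all genes so separated was not computed for IgM, IgG1 or IgG2c cells. It was 25.8% in GC B cells and 20.8% in IgG2b GC B cells. The genotype difference within IgM, IgG1 or IgG2c cells was not tested.

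Blk was at 155, 146, 121 and 125 CPM in IgM cells, 101, 94.8, 86.7 and 83.1 CPM in IgG1 cells, 112, 95, 95.2 and 88.2 CPM in IgG2b cells and 92.2, 90.9, 79.7 and 72.6 CPM in IgG2c cells. No switched value of these mice reached the lowest IgM value. The differences were -0.58 (SE 0.08) for IgG1, -0.47 (SE 0.10) for IgG2b and -0.69 (SE 0.10) for IgG2c, with adjusted p-values of 4.79e-05, 0.0113 and 3.67e-05 by edgeR. Bank1 was also lower in IgG1 (-0.57, SE 0.12) and IgG2c cells (-0.67, SE 0.14), and Blnk in IgG1 cells (-0.23, SE 0.06). Thus 4 of 31 genes were called for IgG1, 2 for IgG2b and 3 for IgG2c, all lower than in IgM cells, beside 2.85%, 0.798% and 0.848% of all genes. Of all genes, 1.95% were lower and 0.904% higher for IgG1, 0.626% and 0.172% for IgG2b, and 0.418% and 0.430% for IgG2c. The receptor chains Cd79a and Cd79b, Syk and Btk were called for none of the 3 isotypes.

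**Figure D5:**
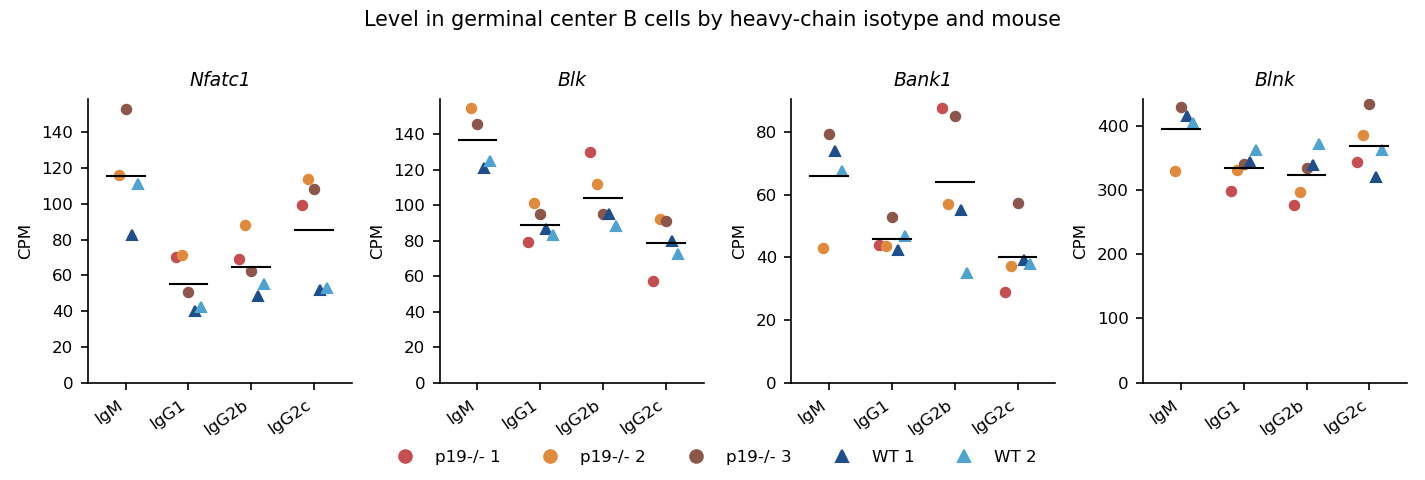
Level of Nfatc1, Blk, Bank1 and Blnk in CPM (linear axes from 0) in GC B cells by heavy-chain isotype, 1 point per mouse with at least 20 such cells and a line at the mean. IgM cells held the most Nfatc1 (82.7 to 153 CPM) and Blk (121 to 155 CPM) in each mouse with IgM cells shown.

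In the GC B cluster lowest in G2 and M phase genes the Bank1 difference for IgG1 was -0.01 (adjusted p = 0.997 by edgeR), and that of Blnk was -0.39 (0.173). For IgG2c the differences there were -0.55 for Bank1, -0.73 for Nfatc1 and -0.81 for Blk, with adjusted p-values of 0.879, 0.435 and 0.0530 by edgeR. Of 17 alternatives run for IgG1, 5 ended the call of Bank1 and 8 that of Blnk. Some of these calls rested on 1 mouse. Without WT 2 the IgG2c difference of Nfatc1 was -0.43 (adjusted p = 0.141) and that of Bank1 -0.61 (0.0636), and without WT 1 that of Bank1 was -0.55 (0.113). The IgG2b difference of Blk was -0.41 (0.292) without p19-/- 3 and -0.47 (0.0717) without WT 2, and for IgG1 Bank1 was at -0.49 (0.0510) without WT 1 and Blnk between -0.25 and -0.18 (0.115 to 0.390) without p19-/- 3, WT 1 or WT 2, all by edgeR. In all mice with at least 20 such cells, the G2 and M phase list summed to 1970 to 3154 CPM in IgM, 2545 to 3778 in IgG1, 1733 to 3627 in IgG2b and 2492 to 3587 CPM in IgG2c cells. T cell markers summed to 8.58 to 22.1 CPM in IgM cells and to 5.64 to 22.2, 2.04 to 7.12 and 2.21 to 56.9 CPM in the switched isotypes. The macrophage or monocyte markers summed to 15.2 to 19.3 CPM in IgM cells and to 2.51 to 12.8, 3.96 to 18.3 and 9.2 to 120 CPM in the switched isotypes. The 9 markers of non-GC B cells were highest in IgM cells, at 406, 319, 284 and 306 CPM in p19-/- 2, p19-/- 3, WT 1 and WT 2. They summed to 188, 170, 200 and 192 CPM in IgG1, 254, 172, 192 and 192 CPM in IgG2b and 229, 249, 208 and 163 CPM in IgG2c cells of these mice, without overlap with IgM cells. Blk and Bank1 were also higher in non-GC than in GC B cells, whereas Blnk was lower there and Nfatc1 was not called. Nfatc1, Blk, Bank1 and Blnk were each called higher in unswitched than in switched non-GC B cells. The part of non-GC B cells in the isotype differences was not tested. Clones were small: the largest held 12 of 240 IgM cells in p19-/- 3 and 4 of 28 in p19-/- 2. Of the other pathway genes, Cd72, an inhibitory co-receptor, was lower in IgG1 (-1.74), IgG2b (-0.93) and IgG2c cells (-0.93). Lck was lower in IgG1 (-1.20) and IgG2b cells (-0.95), Itpr1 was lower in IgG1 cells (-1.15), and Pag1 was higher there (0.74), of 65, 61 and 64 tested. The shares called were 6.15%, 3.28% and 1.56% of these genes, beside 2.85%, 0.798% and 0.848% of all genes.

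Switched non-GC B cells, taken as the memory-like cells, were compared with unswitched ones in p19-/- 1 and 3 and WT 1 and 2. 10 of 30 genes were lower and 1 higher, beside 8.72% of all genes (4.40% lower, 4.33% higher), with a median of -0.34 over the members and -0.01 over all genes. The memory marker list summed to 407 to 498 CPM in switched and 248 to 404 CPM in unswitched cells.

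Cr2 fell furthest, from 85, 108, 95.3 and 40.1 CPM in unswitched cells of p19-/- 1, p19-/- 3, WT 1 and WT 2 to 0, 2.88, 5.52 and 8.11 CPM in their switched cells, which rest on 0, 2, 3 and 7 UMIs. The groups did not overlap (log2 difference -3.98, SE 0.39, adjusted p = 7.89e-07 by edgeR). Bank1 was at 438, 348, 325 and 339 CPM in unswitched and 111, 112, 127 and 115 CPM in switched cells, again apart (-1.60, SE 0.15, adjusted p = 5.45e-07 by edgeR). Cblb, a ubiquitin ligase that restrains receptor signalling, was at 37.4, 24.7, 72.3 and 29.1 against 7.73, 4.32, 9.2 and 5.79 CPM (-2.50, SE 0.39). Its switched values rest on 3 to 5 UMIs per mouse. Nfatc1 (-1.04, SE 0.21), Malt1 (-0.77), Blnk (-0.72), Cd79b (-0.63), Blk (-0.62), Lyn (-0.55) and Cd79a (-0.33) were lower in all 4 mice. Rasgrp3, which activates Ras downstream of diacylglycerol, was the 1 higher gene, at 170, 101, 107 and 117 against 40.8, 94.6, 65.7 and 76.5 CPM (0.74, SE 0.23, adjusted p = 0.0469 by edgeR). Its call was lost without p19-/- 1 (0.42, adjusted p = 0.196), WT 1 (0.75, 0.174) or WT 2 (0.79, 0.127) by edgeR, and by 9 of the 17 alternatives run in all. Without WT 1 the adjusted p by edgeR was also above 0.05 for Cd79a (-0.30, 0.101), Blk (-0.56, 0.0708), Lyn (-0.55; -0.43 with an adjusted p of 0.169 without p19-/- 3) and Nfatc1 (-0.91, 0.0512), which left 6 calls.

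Depth and cell cycle differed between these cells too. In all mice with at least 20 such cells, median UMIs per cell were 8074 to 14241 in switched and 2626 to 5702 in unswitched cells, and G2 and M phase genes summed to 817 to 2071 and 221 to 797 CPM. T cell markers summed to 7.73 to 29.4 and 23.8 to 131 CPM, and macrophage or monocyte markers to 29.4 to 294 and 17 to 87.4 CPM. With cells under 2000 UMIs left out the count of called genes was 11, and with cells holding a T cell receptor complex UMI left out it was 12, including the same 11 genes in both cases. The part of the cell cycle in the result was not tested. Of 62 other pathway genes, 9 were lower, among them Cd72 (-1.12), Rasgrp1 (-1.03), Foxo1 (-0.89) and Nfatc3 (-0.77), and Rac2 (0.31) was the 1 higher. The share called was 16.1%, beside 8.72% of all genes.

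Plasma-like cells were compared in p19-/- 3, WT 1 and WT 2, the mice with at least 20 of them (129, 71 and 68 cells). Against non-GC B cells 19 of 31 genes were lower and 4 higher, beside 34.9% of all genes (17.3% lower, 17.6% higher). Against GC B cells 16 were lower and 5 higher, beside 44.1% of all genes. The 2 comparisons share the plasma cells. The median differences were -0.87 and -0.50 over the members and -0.03 and -0.07 over all genes.

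The phosphatase Ptpn6 was at 39.4, 25.8 and 38.6 CPM in plasma cells against 385, 379 and 364 CPM in non-GC B cells and 272, 236 and 236 CPM in GC B cells. Plasma cells lay far below both (log2 difference -3.38, SE 0.18, and -2.69, SE 0.18). Bank1 was at 16.6, 6.45 and 8.04 CPM, close to the 0.523 to 8.69 CPM of T cells (-4.26, SE 0.25, and -2.24, SE 0.30). Prkcb was at 18.6, 19.3 and 16.1 CPM (-3.52, SE 0.21, and -1.68, SE 0.26), and Cr2 had 0, 1 and 1 UMIs, called lower in both comparisons. Ms4a1 (-2.31 and -2.01), Lyn (-2.26 and -1.53), Blk (-2.33 and -0.84), Pik3ap1 (-2.21 and -2.21), Grb2 (-1.45 and -1.73), Nfatc1 (-1.01 and -1.06), Plcg2 (-0.96 and -0.65), Bcl10 (-0.95 and -0.77), Inpp5d (-0.93 and -0.95), Ptprc (-0.87 and -0.34) and Vav1 (-0.65 and -0.70) were lower in both. Syk (-0.96), Pik3r1 (-0.78), Malt1 (-0.73) and Cd79b (-0.62) were called lower against non-GC B cells but not against GC B cells, and Cblb (-1.15) was called lower against GC B cells but not against non-GC B cells. Whether the 2 differences of a gene differ was not tested.

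With immunoglobulin genes left out, 4 genes were higher in plasma than in non-GC B cells: the receptor chain Cd79a, the co-receptor Cd81, the kinase Fyn and the adaptor Blnk. Cd79a was at 3186, 4516 and 3290 CPM in plasma cells against 2694, 3110 and 2862 CPM in non-GC B cells and 1686, 1857 and 1662 CPM in GC B cells. By CPM without immunoglobulin genes, plasma cells were highest in each mouse (0.33, SE 0.10, adjusted p = 0.0215, and 1.17, SE 0.10, adjusted p = 1.25e-13 by edgeR). The first of these was 0.23 without WT 1 (adjusted p = 0.0968 by edgeR), 0.23 without the non-GC B cluster of highest UMIs (0.112) and 0.36 with immunoglobulin genes kept (0.243), which took 30.6% to 45.7% of plasma cell UMIs. Those genes took 1.9% to 2.11% of non-GC B UMIs in these mice. As a share of all UMIs, Cd79a would therefore be lower in plasma than in non-GC B cells of each mouse. Cd81, a tetraspanin of the co-receptor complex, was at 447, 632 and 590 CPM against 312, 259 and 274 CPM in non-GC B cells, with no overlap (0.97, SE 0.15, and 1.28, SE 0.12). Fyn was at 72.5, 90.3 and 53.1 CPM against 25.1, 39.3 and 23.6 CPM in non-GC B cells (1.31, SE 0.22) and differed by 1.86 (SE 0.21) from GC B cells. Blnk was at 307, 293 and 307 CPM, higher than in non-GC B cells (0.45, SE 0.14) but not called without WT 2 (0.31, adjusted p = 0.187 by edgeR), with immunoglobulin genes kept (0.47, 0.0830), without the non-GC B cluster of highest UMIs (0.35, 0.0648) or with DESeq2 (0.47, 0.0899), and it was not called against GC B cells. Itpr2 (0.61, SE 0.19) and Rasgrp3 (0.37, SE 0.15) were higher than in GC B cells. Against the GC B cluster lowest in G2 and M phase genes they differed by -0.30 and -0.02, neither called, and 11 of 16 alternatives did not keep the call of Rasgrp3.

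T cell RNA was more abundant in plasma cells, where the 12 markers, all detected, summed to 381, 216 and 399 CPM against 36.7, 76.6 and 22.8 CPM in the non-GC B cells of the same mice, and 30% of plasma cells held a T cell receptor complex UMI against 5.68% of non-GC B cells. The macrophage or monocyte markers summed to 139, 567 and 454 CPM in plasma cells, with Adgre1 at 0, against 52.3, 96.8 and 87.1 CPM in non-GC B and 14.5, 15.2 and 20.5 CPM in GC B cells of these mice, and their part in the higher genes was not tested. Fyn is abundant in T cells, and with those cells left out its differences were 1.06 (adjusted p = 0.00252) and 1.58 (4.42e-06) by edgeR. Median UMIs per plasma cell were 947 in p19-/- 3, 6208 in WT 1 and 15984 in WT 2. Leaving out 1 mouse in turn left 18 to 22 and 16 to 20 calls. The calls lost against non-GC B cells, beside those of Cd79a without WT 1 and Blnk without WT 2, were those of Pik3r1 (-0.82 to -0.72, adjusted p = 0.118 to 0.134) and Vav1 (-0.69 to -0.55, 0.0664 to 0.124) without any of the 3 mice, Malt1 without WT 1 (-0.65, 0.0545) or WT 2 (-0.53, 0.123) and Nfatc1 without WT 1 (-0.75, 0.0646), by edgeR. Against GC B cells they were those of Cr2 (adjusted p = 0.0842), Plcg2 (-0.45, 0.0886), Cblb (-1.42, 0.0872), Rasgrp3 (0.39, 0.107) and Itpr2 (0.56, 0.0860) without p19-/- 3, of Ptprc (-0.25, 0.177) without WT 1, and of Cblb (-0.55, 0.463), Rasgrp3 (0.34, 0.221), Itpr2 (0.61, 0.0527) and Ptprc (-0.32, 0.174) without WT 2, by edgeR.

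Among the other pathway genes, 24 of 66 were lower in plasma than in non-GC B cells and 7 higher, and 17 of 70 lower and 14 higher than in GC B cells. The share called was 47.0% against non-GC B cells, beside 34.9% of all genes. Against GC B cells it was 44.3%, near the 44.1% of all genes (23.4% lower, 20.7% higher). The inhibitory lectins Siglecg (-4.97 and -4.11) and Cd22 (-4.09 and -2.61) and the inhibitory co-receptor Cd72 (-3.11 and -1.60) were lower in both. Stap1 (-2.12) was lower than in GC B cells. Pik3cg (3.08 and 2.51), the gamma catalytic subunit of phosphoinositide 3-kinase, and its partner Pik3r5 (1.01 and 5.65) were higher in both. Chuk (1.07) and Hras (0.89) were higher than in non-GC B cells, and Ptpn22 (5.24), Dgka (1.69) and Themis2 (1.64) higher than in GC B cells.

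The cluster led by Sox4 and Pcp4 was not shared evenly by the mice. It held 299 cells of p19-/- 1, 69 of p19-/- 2, 13 of p19-/- 3, 22 of WT 1 and 23 of WT 2. Sox4 had 640, 0, 0, 1 and 0 UMIs and Pcp4 150, 5, 0, 0 and 0 UMIs in these cells, so the defining genes were nearly absent outside p19-/- 1. Of its p19-/- 1 cells, 215 had an IgM contig, 4 an IgG contig and 80 none. In p19-/- 2, WT 1 and WT 2, 15, 2 and 2 cells had an IgM contig and 53, 16 and 21 had none. Median UMIs per cell were 1158 to 3749 in the 4 mice with at least 20 cells.

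Compared with non-GC B cells in those 4 mice, 7 of 31 genes were lower and 1 higher, beside 11.4% of all genes (8.72% lower, 2.73% higher), and the median was -0.58 over the members and -0.14 over all genes. The receptor chain Cd79b was at 406, 715, 395 and 337 CPM against 1183, 1238, 1554 and 1471 CPM in the non-GC B cells of p19-/- 1, p19-/- 2, WT 1 and WT 2. The groups did not overlap (-1.44, SE 0.29, adjusted p = 3.69e-05 by edgeR). Cd79a was at 1431, 1215, 1150 and 952 CPM against 2532, 2540, 3110 and 2862 CPM (-1.12, SE 0.28). Malt1 was at 25.3, 17.2, 18 and 0 CPM against 120, 101, 88.7 and 97.7 CPM (-2.09, SE 0.43). The cluster's sums held 1306650, 116024, 55646 and 50404 UMIs in these mice. Its values outside p19-/- 1 therefore rest on few UMIs per gene, those of Malt1 and Cr2 among them. The alternative without cells under 2000 UMIs gave no fit for this comparison. Rasgrp3 (-1.97, SE 0.43), Ptprc (-1.40, SE 0.31), Ms4a1 (-1.29, SE 0.30) and Plcg2 (-1.12, SE 0.34) were lower as well. Cr2 was called higher (1.20, SE 0.43, adjusted p = 0.0492 by edgeR), although it was at 43.6, 69, 126 and 0 CPM against 32.5, 9.3, 53.4 and 17.9 CPM and lower in WT 2. That call was lost without p19-/- 1 (1.52, adjusted p = 0.170), p19-/- 2 (0.75, 0.434) or WT 1 (1.24, 0.0935) by edgeR, and in all by 13 of the 16 alternatives run, DESeq2 among them (adjusted p = 0.242). T cell markers summed to 28.3, 51.7, 35.9 and 238 CPM in these cells. The pan B markers summed to 12801, 13256, 13945 and 11805 CPM against 26148, 24389, 28694 and 25584 CPM in non-GC B cells. GC B markers ranged from 54.3 to 845 CPM and G2 and M phase genes from 414 to 2758 CPM over the mice in this cluster. The cluster thus differed between mice in Sox4, Pcp4, isotype contigs and these markers. Its sums cannot be taken as replicates of 1 cell population, which limits the SEs and adjusted p-values given here. Whether the members fell more than other B cell genes was not tested. No kinase or adaptor gene was called, and in p19-/- 1 Blk was at 200 CPM and Blnk at 312 CPM against 246 and 234 CPM in its non-GC B cells.

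Without p19-/- 1, 5 of 29 genes were called: Rasgrp3 (adjusted p = 0.133) kept its sign without a call, as did Plcg2 at -1.08 (0.0974), and without WT 1 Plcg2 was at -0.96 (0.0663), by edgeR. In the simulation of this comparison 11.9% of 2-fold and 54.5% of 4-fold changes were recovered. Of 67 other pathway genes, 11 were lower, with Pag1 (-2.70), Braf (-2.52), Cd22 (-2.41), Itpr1 (-2.29) and Themis2 (-2.15) the furthest, and 1 was higher. The share called was 17.9%, beside 11.4% of all genes.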

How the data were processed

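Splenic B and T cells of 3 BXD2-p19-/- and 2 BXD2-WT mice were profiled. The authors deposited UMI counts per gene and cell, and contig annotations of the matching receptor libraries. Cell Ranger 3.0.2 and STAR with the mm10 build were used, per the submitters' processing notes. Cells under 200 genes or over 10% mitochondrial UMIs were removed. Scrublet's automatic limit marked 28 cells (0.299%), so the share of highest scores expected from 0.8% doublets per 1000 cells was removed instead (156 cells). Cells were clustered with scanpy 1.11.5 and leidenalg 0.10.2 (Python 3.11.15; 2000 variable genes, 20 components, resolution 1.0, 20 clusters), without the 32 genes and 71 other pathway genes. Cell names were rebuilt from markers and may differ from the study's.

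Counts were summed per mouse and class with at least 20 cells and tested with edgeR 4.0.16 (R 4.3.3; TMM, filterByExpr, quasi-likelihood test, adjusted over all genes), with mouse as a block in comparisons within mice. DESeq2 1.42.0 was an alternative. Each fit was tested on simulated data. Adjusted p-values in the text are Benjamini-Hochberg values from edgeR unless DESeq2 is named. Replicate numbers were used only as names of the mice. Members, gene lists and tests were chosen with earlier results of these data known. All members are accounted for, and full values were given to those called, at most the 10 with the largest change per comparison, to Cd79a, Cd79b, Syk, Lyn, Btk, Blnk and Nfatc1 in the genotype comparisons, and to up to 5 called pathway genes per direction, of which some are not reported here. Other genes with values, such as Bank1 and Grb2 in the genotype comparisons, were chosen after their values were seen.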

Additional observations from a re-analysis of the deposited data

How the results depend on the processing

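Of the member differences called, 303 of 360 recomputed under the alternatives kept direction and call between zones, 369 of 397 between GC and non-GC B cells, 343 of 368 between plasma and non-GC B cells, 303 of 336 between plasma and GC B cells, 165 of 187 between switched and unswitched cells, 111 of 128 for the Sox4 and Pcp4 cluster, and 55 of 68, 27 of 32 and 38 of 51 for IgG1, IgG2b and IgG2c. Genotype counts were 0 of the members in IgG2b and non-GC B cells under all alternatives run. In GC B cells the count was 1 (Nfatc1) with no filter on low counts and with DESeq2, and 0 to 1 when 1 mouse was left out. Leaving out a WT mouse leaves a lone WT sample, assumed to vary like the p19-/- mice. With the labels' replicate number as a replicate block, 0 genes were called in each of the 3 genotype comparisons, and Nfatc1 was at 0.51 (adjusted p = 0.141 by edgeR). The deviations of same-numbered libraries of the 2 genotypes from their group means correlated at -0.16 and -0.02 over 7066 genes. With 2 WT mice the WT deviations mirror each other, so these values cannot decide whether the numbers pair the mice. Counts for IgG1 were 2 with DESeq2, with immunoglobulin genes kept, with no replicate block (mouse) and in the GC B cluster lowest in G2 and M phase genes. Counts for IgG2b were 1 with DESeq2, with immunoglobulin genes kept and with no replicate block, and 1 to 3 with 1 mouse left out. Counts for IgG2c were 1 in the same 3 settings, 0 in that cluster and 1 to 3 with 1 mouse left out. That cluster held too few IgG2b cells to test. Switched cells gave 7 calls with DESeq2 and 6 to 11 with 1 mouse left out. The Sox4 and Pcp4 cluster gave 5 to 9 with 1 mouse left out and 13 with no replicate block. With RLE size factors the median of all genes in that comparison moved from -0.14 to -0.20.

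Directions reversed in 3 comparisons, and the cause was not tested. Against the zone score, the dark zone list without cell cycle genes gave Cd79a -0.35, Cd79b -0.73, Cd81 -0.23, Syk -0.70, Lyn -0.51, Blk -0.04, Bank1 -0.03 and Itpr2 -0.19. With tertiles of that score taken within each GC B cluster, a setting chosen after seeing the data, they were Cd79a -0.35, Cd79b -0.73, Cd81 -0.21, Syk -0.73, Lyn -0.52, Blk -0.08, Bank1 -0.04 and Itpr2 -0.17. In the GC B cluster lowest in G2 and M phase genes, the differences from non-GC B cells were Cd79b 0.49, Cd81 0.04, Ms4a1 0.27, Syk 0.14, Lyn 0.04, Btk 0.05, Pik3r1 0.16, Plcg2 0.27 and Itpr2 0.50, and those of plasma cells from it were Rasgrp3 -0.02 and Itpr2 -0.30.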

Other observations

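Several of the genes were also present outside B cells. In the macrophage-like cells of the 3 mice with at least 20 of them (p19-/- 1, WT 1 and WT 2), Syk was at 728, 338 and 356 CPM, Lyn at 495, 384 and 410 CPM, and Bank1 at 247, 291 and 205 CPM. Bank1 in GC B cells of the same mice was at 49.8, 50.8 and 45.7 CPM. In T cells, Fyn was at 337 ± 27.1 CPM (SD, n = 5), Nfatc1 at 376 ± 39.0 CPM, Malt1 at 213 ± 49.2 CPM and Ptprc at 869 ± 72.7 CPM, whereas Syk was at 6.34 ± 3.39 CPM and Btk at 1.02 ± 1.48 CPM. These levels were not compared by a test.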
